A study of Mus musculus with 5 samples.

Results

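St8sia1, B3gnt2 and Arpp21 give their names to 3 intervals of the mouse genome that were examined by their chromatin accessibility in developing T cells: St8sia1 (chr6:142750000-142950000), B3gnt2 (chr11:22650000-22850000) and Arpp21 (chr9:111950000-112200000), all on the mm9 build. The members were the ATAC-seq peaks of 5 libraries that overlapped these intervals by at least 1 bp. They numbered 74 of 63932 listed peaks in transgenic SOX13hi cells, 59 of 54435 in SOX13hi, 34 of 33155 in transgenic SOX13lo, 110 of 67482 in SOX13lo and 207 of 113877 in double-positive (DP) thymocytes. Merging all 5 lists gave 157434 regions, of which 272 lay in the intervals: 114 at St8sia1, 86 at B3gnt2 and 72 at Arpp21. The intervals were chosen by measured values: 1 window of 100 kb in each ranked among the 5 with the largest deficit of regions in SOX13hi against SOX13lo. The values of that contrast are therefore described here and support nothing.

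ATAC-seq tags open chromatin with a transposase, and 40000 sorted cells went into each library. The transgenic SOX13hi library came from CD24+ CFPhi γδ thymocytes of TCRbeta KO.Sox13tg+.Sox13 ECFP KI/+ mice, and the SOX13hi library from the same gate in TCRbeta KO.Sox13 ECFP KI/+ mice. The transgenic SOX13lo and SOX13lo libraries came from CD24+ cells with low or absent CFP of those same genotypes. DP cells came from wild type animals, and all mice were on the C57BL/6 strain. CFP reports the Sox13 locus, so hi and lo name a reporter gate. The 4 γδ libraries share the loss of TCRbeta and 1 Sox13 allele carrying ECFP, neither of which the DP library has, so cell type and genotype cannot be told apart in any γδ comparison with DP. The promoter of the transgene, the number of animals and their age are not stated in the labels. CD24 marks immature thymocytes; the sorted populations were not checked against marker genes, because the peak lists name no genes.

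Each group held 1 library, so no comparison has a replicate check and no p-value is given. Intervals are exact Poisson 95% intervals on counts, or exact Clopper-Pearson 95% intervals on shares, and cover counting error only. Read depth is unknown. The lists differed in length from 33155 to 113877 peaks, so counts were also given per 10000 listed peaks and over the 33155 highest scores of each list, called lists of equal length. Inside the SOX13lo list, the peak names carry SOX13hi throughout. The label of the sample was followed, and every SOX13lo value below rests on that label. The labels also give the transgenic SOX13hi and DP libraries 1 and the same index sequence.

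St8sia1 encodes GD3 synthase, a sialyltransferase that adds a sialic acid to the ganglioside GM3 and so opens the synthesis of the more highly sialylated gangliosides of the cell surface. B3gnt2 encodes an N-acetylglucosaminyltransferase that extends poly-N-acetyllactosamine chains on glycoproteins, T-cell surface proteins among them. Arpp21 encodes a cAMP-regulated phosphoprotein that binds RNA. It is known from the brain and from immature thymocytes, and the gene hosts the microRNA gene Mir128-2. DP thymocytes, which carry both CD4 and CD8, are the stage at which αβ T cells rearrange their T-cell receptor alpha chain. SOX13 is an HMG-box transcription factor known for its role in the γδ lineage. In the RefSeq gene table (GRCm38.p6), St8sia1 spans 168.0 kb between Sult6b2 and C2cd5, B3gnt2 spans 25.6 kb between Tmem17 and Commd1, and Arpp21 spans 171.2 kb between Stac and Pdcd6ip. These are the nearest protein-coding neighbours. No annotation of mm9 was used, so peaks are not assigned to exons, introns, UTRs or start sites.

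The promoters of the genes after which the intervals are named are shown because they are the regulatory sequence known for each gene; the peak sequences themselves were not analysed here. Each line holds the 250 bases before the start, written 5′ to 3′ on the strand of the gene, from RefSeq. All 3 symbols matched, Arpp21 with 9 promoters, of which the one furthest upstream is printed. The GRCm38.p6 positions cannot be set against the mm9 positions of the peaks. Capitals mark matches on either strand. For HMG-box factors the motifs searched were ACAAAG, known for SOX and TCF proteins, and the shorter ACAAT, known for SOX proteins. For E proteins the search used CAGCTG, for RUNX proteins TGTGGT and for ETS proteins GGAAG.
St8sia1 (chr6:142964453-142964702, GRCm38.p6, minus strand): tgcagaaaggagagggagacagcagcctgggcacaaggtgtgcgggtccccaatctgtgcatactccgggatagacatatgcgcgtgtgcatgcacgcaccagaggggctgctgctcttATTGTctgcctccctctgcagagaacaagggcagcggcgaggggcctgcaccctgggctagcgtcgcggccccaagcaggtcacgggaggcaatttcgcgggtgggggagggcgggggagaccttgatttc
B3gnt2 (chr11:22859736-22859985, GRCm38.p6, minus strand): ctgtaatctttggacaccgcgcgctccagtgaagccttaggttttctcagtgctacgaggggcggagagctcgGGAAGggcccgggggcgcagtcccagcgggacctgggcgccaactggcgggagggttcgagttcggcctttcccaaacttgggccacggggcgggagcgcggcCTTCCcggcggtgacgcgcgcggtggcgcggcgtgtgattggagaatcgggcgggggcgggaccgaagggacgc
Arpp21 (chr9:112233723-112233972, GRCm38.p6, minus strand): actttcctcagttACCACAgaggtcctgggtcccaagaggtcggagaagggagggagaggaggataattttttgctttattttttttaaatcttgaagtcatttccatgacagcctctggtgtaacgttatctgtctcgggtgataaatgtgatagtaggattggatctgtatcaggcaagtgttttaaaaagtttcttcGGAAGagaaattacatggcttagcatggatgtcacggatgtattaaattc

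The St8sia1 promoter held 1 ACAAT, on the opposite strand, and none of the other motifs. That motif occurred in 27.7% of all 32851 promoters of this length. The B3gnt2 promoter held 2 GGAAG, a motif found in 64.1% of all promoters. The printed Arpp21 promoter held 1 TGTGGT, on the opposite strand, against a share of 14.0% of all promoters, and 1 GGAAG. Among the printed windows, ACAAAG (16.5% of all promoters) and likewise CAGCTG (13.0%) were in none. Of the 9 Arpp21 promoters in the table, ACAAAG was found in 2 and likewise ACAAT was found in 2, while CAGCTG was found in 3 and likewise TGTGGT was found in 3, and GGAAG was found in 5. GC content was 63.6% at St8sia1, 70.0% at B3gnt2 and 40.4% at Arpp21, around a median of 52.4% over all promoters. CpG dinucleotides numbered 14 at St8sia1, 31 at B3gnt2 and 5 at Arpp21, around a median of 6. No motif searched was found in all 3 printed promoters, and they stand on both sides of the median in GC content and CpG number.

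The St8sia1 interval had the fewest peaks per listed peak in transgenic SOX13lo cells and the most in DP cells. It held 28 peaks in transgenic SOX13hi cells (95% interval 18.6 to 40.5), 26 in SOX13hi (17.0 to 38.1), 8 in transgenic SOX13lo (3.45 to 15.8), 44 in SOX13lo (31.97 to 59.1) and 85 in DP (67.9 to 105). Per 10000 listed peaks these were 4.38 in transgenic SOX13hi, 4.78 in SOX13hi, 2.41 in transgenic SOX13lo, 6.52 in SOX13lo and 7.46 in DP. The transgenic SOX13lo interval of 1.04 to 4.75 lay wholly below the DP interval of 5.96 to 9.23 and met the SOX13lo interval of 4.74 to 8.75 only at its edge; every other pair of libraries overlapped. On the log2 scale the rate in SOX13hi was -0.45 relative to SOX13lo and -0.64 relative to DP. The rate in transgenic SOX13hi was -0.57 relative to SOX13lo, and that in transgenic SOX13lo was -1.43. The 95% interval of the ratio lay below 0 for transgenic SOX13lo against SOX13lo (-2.73 to -0.33) and against DP (-2.89 to -0.59). It also did for transgenic SOX13hi against DP (-1.44 to -0.14), and it held 0 for the other contrasts with SOX13lo or DP. These intervals too cover counting error only. SOX13lo differed from DP by -0.20. Over lists of equal length the peaks numbered 11 in transgenic SOX13hi, 8 in SOX13hi, 8 in transgenic SOX13lo, 16 in SOX13lo and 23 in DP, and SOX13hi stood at -1.0 relative to SOX13lo and -1.52 relative to DP. SOX13lo and DP therefore kept the highest rates among equally long lists too, with overlapping intervals between SOX13lo and all other libraries.

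B3gnt2 showed its lowest rate in SOX13hi and its highest in DP. It held 22 peaks in transgenic SOX13hi (95% interval 13.8 to 33.3), 14 in SOX13hi (7.65 to 23.5), 11 in transgenic SOX13lo (5.49 to 19.7), 33 in SOX13lo (22.7 to 46.3) and 69 in DP (53.7 to 87.3). The rates per 10000 listed peaks were 3.44 in transgenic SOX13hi, 2.57 in SOX13hi, 3.32 in transgenic SOX13lo, 4.89 in SOX13lo and 6.06 in DP. The SOX13hi interval of 1.41 to 4.32 lay below the DP interval of 4.71 to 7.67, and all other pairs overlapped. The log2 ratio to SOX13lo was -0.51 in transgenic SOX13hi, -0.93 in SOX13hi and -0.56 in transgenic SOX13lo. Relative to DP it was -0.82 in transgenic SOX13hi, -1.24 in SOX13hi, -0.87 in transgenic SOX13lo and -0.31 in SOX13lo. The 95% interval of the ratio to DP lay below 0 for transgenic SOX13hi (-1.58 to -0.11) and SOX13hi (-2.18 to -0.39). It held 0 for transgenic SOX13lo and SOX13lo, as did the intervals of all ratios to SOX13lo. Among lists of equal length the peaks numbered 14 in transgenic SOX13hi, 10 in SOX13hi, 11 in transgenic SOX13lo, 15 in SOX13lo and 15 in DP. At that length the transgenic SOX13hi list held 1 peak fewer than SOX13lo and DP, and all 5 intervals overlapped.

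Arpp21 did not follow a DP-like order over its whole interval. It held 24 peaks in transgenic SOX13hi (95% interval 15.4 to 35.7), 19 in SOX13hi (11.4 to 29.7), 15 in transgenic SOX13lo (8.40 to 24.7), 33 in SOX13lo (22.7 to 46.3) and 53 in DP (39.7 to 69.3). Per 10000 listed peaks these came to 3.75 in transgenic SOX13hi, 3.49 in SOX13hi, 4.52 in transgenic SOX13lo, 4.89 in SOX13lo and 4.65 in DP. All 5 intervals overlapped, and transgenic SOX13lo lay beside DP, at -0.04 on the log2 scale. The log2 ratio to SOX13lo was -0.38 in transgenic SOX13hi, -0.49 in SOX13hi and -0.11 in transgenic SOX13lo. Among lists of equal length the peaks numbered 11 in transgenic SOX13hi, 13 in SOX13hi, 15 in transgenic SOX13lo, 16 in SOX13lo and 15 in DP. The name DP-like thus held by order of rates for St8sia1 and B3gnt2 when all peaks were counted. Joining peaks within 150 bp turned that order at St8sia1, where SOX13hi had 5.46, SOX13lo 4.90 and DP 8.18 sites per 10000 joined sites.

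**Figure D1:**
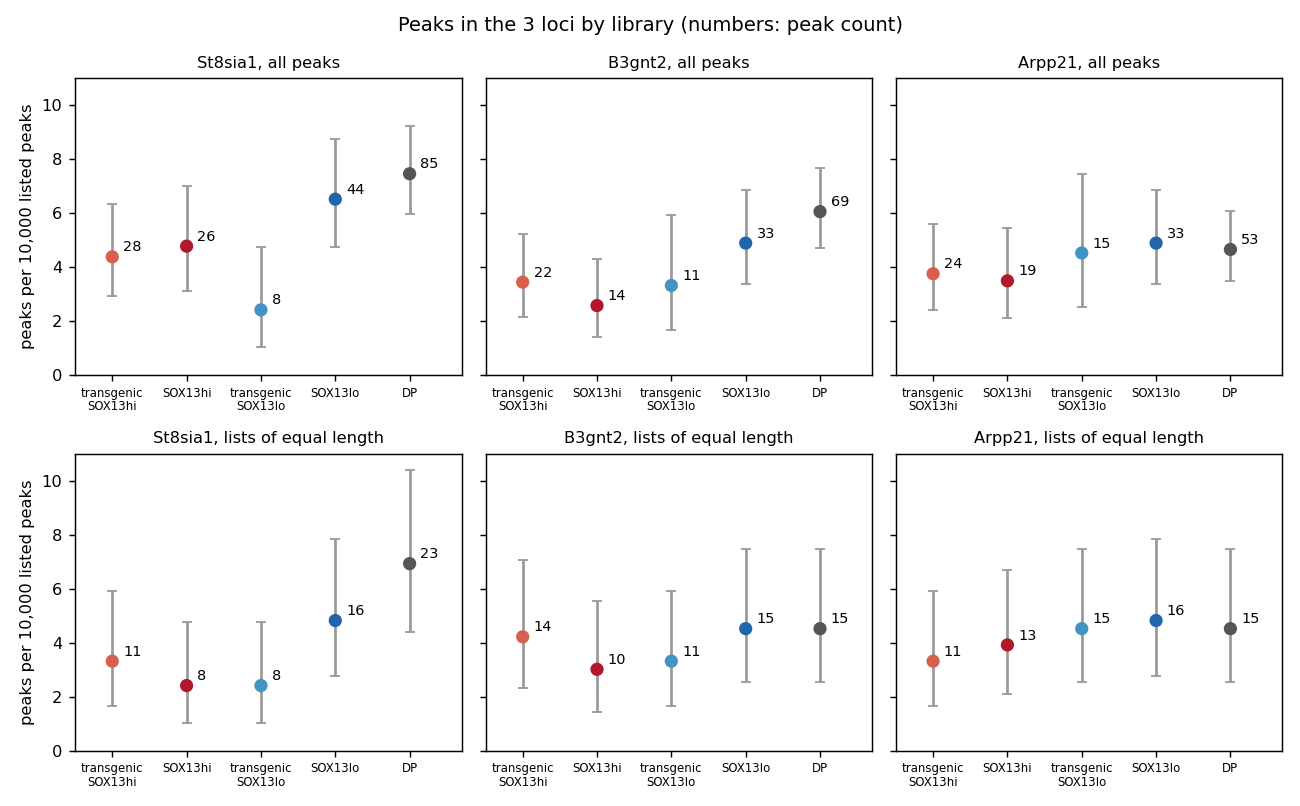
Peaks per 10000 listed peaks (vertical axis) in each library (horizontal axis) at the 3 loci, for all peaks (upper row) and for lists of equal length (lower row). Points are single libraries, bars are exact Poisson 95% intervals and the numbers are peak counts. DP is highest at St8sia1 (7.46) and B3gnt2 (6.06) with all peaks, whereas the 5 Arpp21 points lie between 3.49 and 4.89 with overlapping bars.

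The windows that chose the loci held the deficits by which they were ranked. In the ranked St8sia1 window (chr6:142800001-142900000) there were 14 regions in transgenic SOX13hi, 8 in SOX13hi, 5 in transgenic SOX13lo, 25 in SOX13lo and 51 in DP. The ranked B3gnt2 window (chr11:22700001-22800000) had 15 regions in transgenic SOX13hi, 9 in SOX13hi, 7 in transgenic SOX13lo, 26 in SOX13lo and 52 in DP. In the ranked Arpp21 window (chr9:112100001-112200000) the counts were 16 in transgenic SOX13hi, 10 in SOX13hi, 9 in transgenic SOX13lo, 27 in SOX13lo and 40 in DP. SOX13hi held fewer regions than SOX13lo by 10.7, 10.5 and 10.2 at St8sia1, B3gnt2 and Arpp21, after the SOX13lo count was multiplied by the ratio of the totals of the 2 libraries. Of 13752 windows with a region, 0.931% had a deficit of at least 5 in that contrast, which is the one the rule used. The ranks were 3, 4 and 5. Above them, rank 1 (chr4:144800001-144900000) stood at -15.7 and rank 2 (chr3:130800001-130900000) at -13.7; just outside the 5 chosen, rank 6 (chr15:97600001-97700000) stood at -9.74 and rank 7 (chr5:141000001-141100000) at -9.24.

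Outside the ranked windows of the same loci, the deficit was small or turned into an excess. The ranked windows were chosen as extremes, so less extreme values beside them follow from the choice. How local the deficit was cannot be read from them. The other 2 windows that reach into the St8sia1 interval held more regions in SOX13hi than the scaled SOX13lo count, by 2.0 and 3.01. At Arpp21 the window next to the ranked one was higher in SOX13hi by 4.0, and the window beyond it stood at 0. At B3gnt2 both adjoining windows were slightly lower in SOX13hi, at -1.0 and -0.75. In the flanks of 200 kb before the St8sia1 interval, 6 peaks were listed in transgenic SOX13hi, 6 in SOX13hi, 2 in transgenic SOX13lo, 9 in SOX13lo and 15 in DP. After it, 17 were listed in transgenic SOX13hi, 13 in SOX13hi, 9 in transgenic SOX13lo, 17 in SOX13lo and 50 in DP. Per 10000 listed peaks, in that order of libraries, the flank before it gave 0.94, 1.10, 0.60, 1.33 and 1.32. The flank after it gave 2.66, 2.39, 2.71, 2.52 and 4.39. Around B3gnt2 the flanks held 6 and 12 peaks in transgenic SOX13hi, 9 and 11 in SOX13hi, 5 and 8 in transgenic SOX13lo, 9 and 16 in SOX13lo and 16 and 24 in DP, before and after the interval. Per 10000 listed peaks, in that order of libraries, the flank before B3gnt2 gave 0.94, 1.65, 1.51, 1.33 and 1.41. The flank after B3gnt2 gave 1.88, 2.02, 2.41, 2.37 and 2.11. No library listed a peak within 200 kb on either side of the Arpp21 interval.

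**Figure D2:**
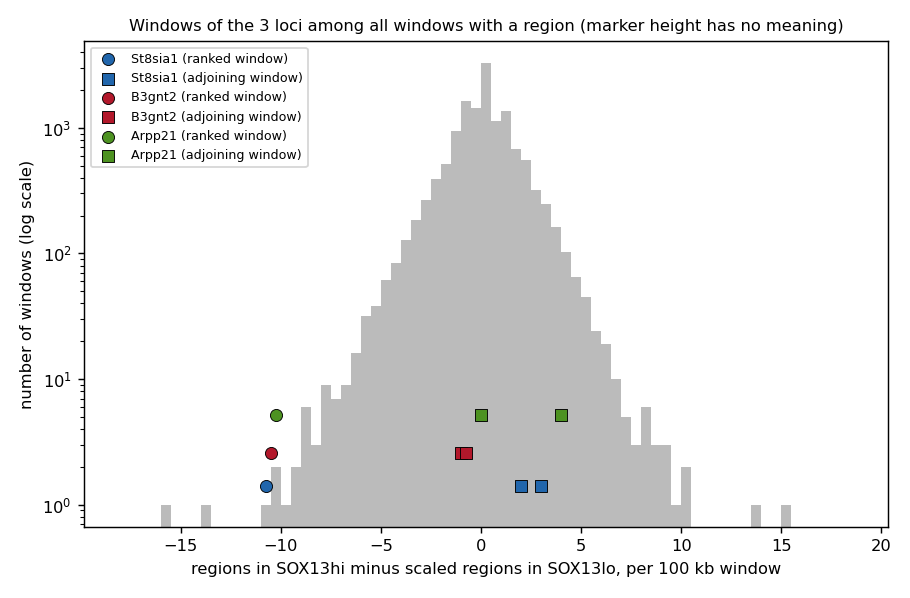
Number of 100 kb windows (vertical log axis) by regions in SOX13hi minus scaled regions in SOX13lo (horizontal axis), with the windows of the 3 loci marked. Circles are the windows that chose the loci, at -10.7, -10.5 and -10.2; squares are the windows adjoining them within the intervals, between -1.0 and 4.0.

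The other contrasts of the same windows were not used by the rule but share the SOX13lo or DP library. They are not independent of the choice, which favoured windows with many regions in SOX13lo and few in SOX13hi. That pushes contrasts against SOX13lo, and SOX13hi against DP, toward a deficit, and SOX13lo against DP away from one. The shares beside them count all windows with a region, also those with few, so these values are descriptions. Against SOX13lo, transgenic SOX13hi stood at -8.59 regions at St8sia1, -8.50 at B3gnt2 and -8.40 at Arpp21, all 3 past the deficit of 5 that 2.23% of windows reached. Transgenic SOX13lo stood at -5.56 at St8sia1, -3.98 at B3gnt2 and -2.41 at Arpp21, so 1 of 3 passed, where 0.313% of windows did. Against DP, SOX13hi stood at -12.4, -11.8 and -5.97 (3.77% of windows at -5 or lower) and transgenic SOX13hi at -10.5, -10.0 and -3.25 (4.66% of windows), in the order St8sia1, B3gnt2 and Arpp21. Transgenic SOX13lo against DP stood at -6.47 at St8sia1, -4.70 at B3gnt2 and 0.00 at Arpp21, with 0.996% of windows past the limit. SOX13lo itself differed from DP by -2.16 at St8sia1, -1.69 at B3gnt2 and 5.70 at Arpp21, none of them past the deficit that 5.62% of windows reached. SOX13lo was thus near the scaled DP count in the first 2 windows and above it at Arpp21. Over lists of equal length, SOX13hi stood at -7.19 regions against SOX13lo at St8sia1, -5.13 at B3gnt2 and -5.19 at Arpp21, with ranks 8, 34 and 33 and a background of 0.32% of 11546 windows past the deficit of 5.

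With equally long lists fewer of the other contrasts passed, and they depend on the choice of the windows in the same way. Transgenic SOX13hi against SOX13lo stood at -6.47 at St8sia1, -4.43 at B3gnt2 and -3.47 at Arpp21 (0.537% of windows past the limit), and transgenic SOX13lo at -4.98, -3.81 and -0.98 in the same order (0.433%). Against DP, SOX13hi stood at -8.19 at St8sia1, -3.45 at B3gnt2 and -4.45 at Arpp21 (1.67% of windows). Transgenic SOX13hi against DP stood at -7.50, -2.71 and -2.71 (1.69%), transgenic SOX13lo at -5.87, -2.32 and -0.32 (1.1%), and SOX13lo at -1.07, 1.80 and 0.80 (1.76%). The St8sia1 window was thus past the limit for both SOX13hi libraries, against SOX13lo and against DP alike, and for transgenic SOX13lo against DP, whereas at B3gnt2 and Arpp21 only the contrast that chose them was. Between the transgenic fractions, SOX13hi differed from SOX13lo by 3.30 regions at St8sia1, 0.03 at B3gnt2 and -3.25 at Arpp21 with all peaks, where 4.25% of windows had a deficit of at least 5, and by -0.75, -0.04 and -2.34 with equal length, where 0.996% did.

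Within the loci, the libraries differed more in some stretches of 10 kb than in others. At St8sia1 the stretch chr6:142860001-142870000 held 4 regions in transgenic SOX13hi, 2 in SOX13hi, 4 in transgenic SOX13lo, 11 in SOX13lo and 11 in DP. Listed peaks there covered 446 bp in transgenic SOX13hi, 266 bp in SOX13hi, 717 bp in transgenic SOX13lo, 1514 bp in SOX13lo and 1204 bp in DP. With peaks within 150 bp joined, the stretch held 4 sites in transgenic SOX13hi, 3 in SOX13hi, 3 in transgenic SOX13lo, 6 in SOX13lo and 9 in DP. None of these measures is scaled to the length of the lists. Per Mb listed, the covered length was 76.1 bp in transgenic SOX13hi, 50.8 bp in SOX13hi, 270 bp in transgenic SOX13lo, 212 bp in SOX13lo and 102 bp in DP. At equal list length the stretch held 2 regions in transgenic SOX13hi, 2 in SOX13hi, 4 in transgenic SOX13lo, 4 in SOX13lo and 2 in DP. On the scaled measures both SOX13lo libraries stood above DP and both SOX13hi libraries at or below it. Another stretch was chr6:142900001-142910000, with 4 regions in transgenic SOX13hi, 4 in SOX13hi, 0 in transgenic SOX13lo, 2 in SOX13lo and 15 in DP. With equal length it held 2 in transgenic SOX13hi, 1 in SOX13hi, 0 in transgenic SOX13lo, 0 in SOX13lo and 2 in DP. Of the 20 stretches of St8sia1, 8 held fewer regions in SOX13hi than in SOX13lo, 5 more and 7 the same number. With equal length 6 held fewer, 3 more and 11 the same number. The tallies with all peaks compare unscaled counts, and SOX13lo has the longer list (67482 peaks, beside 54435 in SOX13hi). Both tallies follow the contrast that the rule used. The same tallies were not made over the whole genome, so they are descriptions without a background.

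At B3gnt2 the stretch chr11:22740001-22750000 held 4 regions in transgenic SOX13hi, 1 in SOX13hi, 2 in transgenic SOX13lo, 7 in SOX13lo and 17 in DP. The stretch chr11:22750001-22760000 held 3 in transgenic SOX13hi, 5 in SOX13hi, 1 in transgenic SOX13lo, 8 in SOX13lo and 14 in DP. Fewer regions in SOX13hi than in SOX13lo were listed in 8 of the 20 stretches of B3gnt2, more in 1 and equal numbers in 11. With equal length 2 stretches of B3gnt2 held fewer, 0 more and 18 equal numbers. At Arpp21, 3 of 25 stretches held fewer regions in SOX13hi, 2 held more and 20 were equal, and with equal length 2 held fewer, 2 more and 21 equal numbers. One of them, chr9:112130001-112140000, held 5 regions in transgenic SOX13hi, 4 in SOX13hi, 1 in transgenic SOX13lo, 15 in SOX13lo and 12 in DP. With peaks within 150 bp joined, it held 5 sites in transgenic SOX13hi, 4 in SOX13hi, 1 in transgenic SOX13lo, 7 in SOX13lo and 8 in DP. Covered length there was 721 bp in transgenic SOX13hi, 419 bp in SOX13hi, 28 bp in transgenic SOX13lo, 1699 bp in SOX13lo and 1701 bp in DP. Per Mb listed this was 123 bp in transgenic SOX13hi, 80.01 bp in SOX13hi, 10.6 bp in transgenic SOX13lo, 238 bp in SOX13lo and 144 bp in DP. At equal list length it held 4 regions in transgenic SOX13hi, 2 in SOX13hi, 1 in transgenic SOX13lo, 7 in SOX13lo and 4 in DP. SOX13lo was highest on the scaled measures, and DP was level with transgenic SOX13hi in regions of equal-length lists. By contrast chr9:112070001-112080000 held 4 regions in transgenic SOX13hi, 4 in SOX13hi, 1 in transgenic SOX13lo, 2 in SOX13lo and 2 in DP. These stretches were singled out after their values were seen. The tallies of stretches at B3gnt2 and Arpp21 have the same limits as those at St8sia1.

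**Figure D3:**
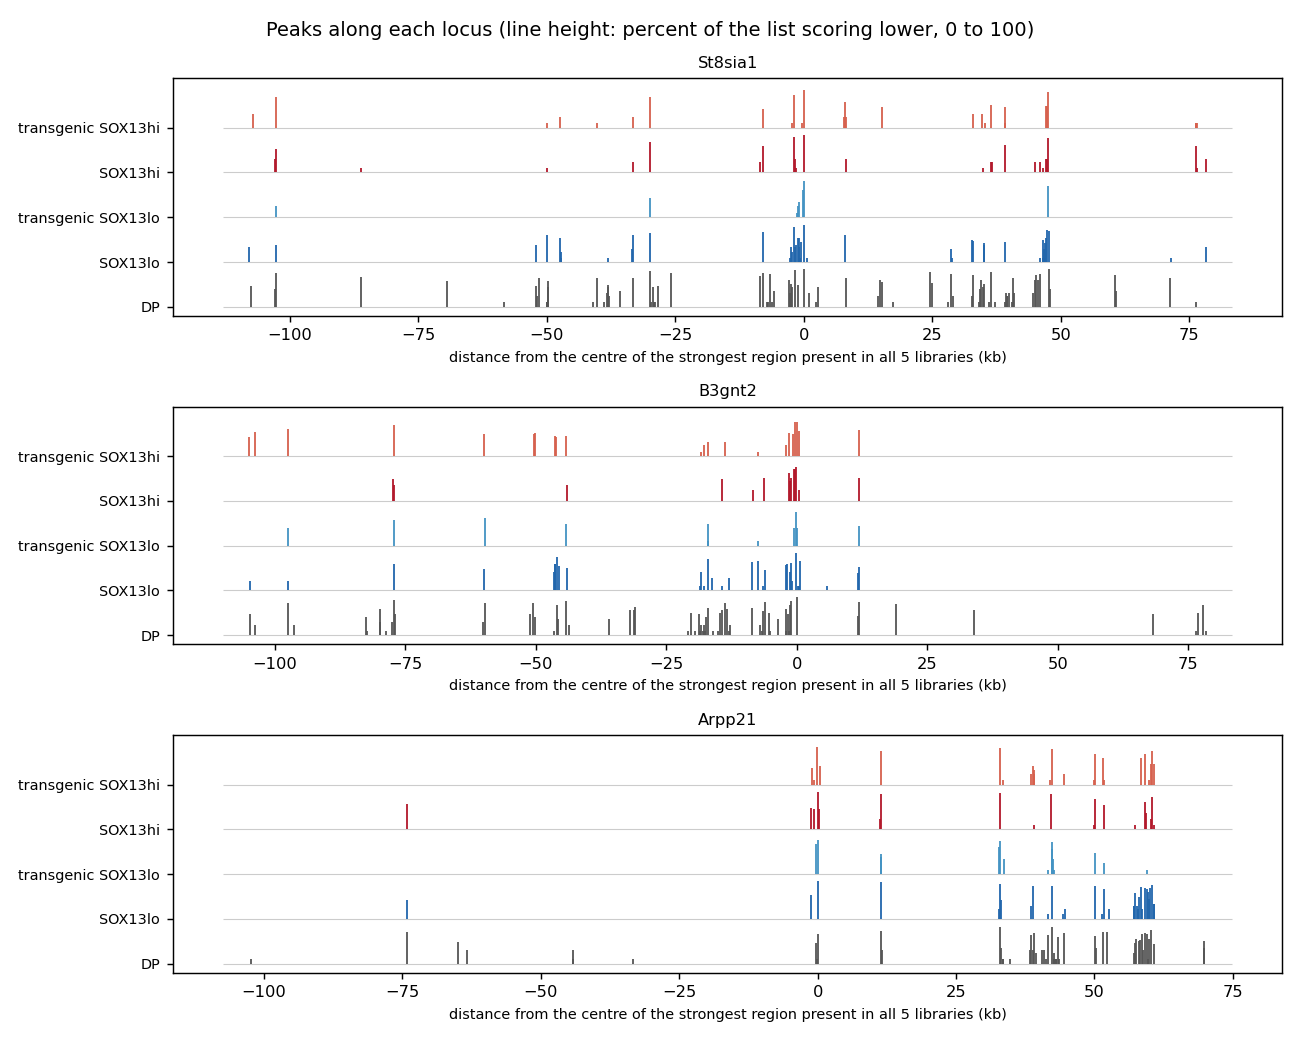
Peaks of each library (rows) along the 3 loci by distance in kb from the centre of the region present in all 5 libraries that ranks highest in SOX13hi (horizontal axis); line height is the percent of the peak's own list that scores lower. Peaks crowd in SOX13lo and DP just left of 0 at St8sia1 and near 58 kb at Arpp21, and Arpp21 is almost empty left of 0 in all 5 libraries.

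The highest-scoring peak of the St8sia1 and B3gnt2 intervals lay in the same region in all 5 libraries, and that of Arpp21 in the same region in the 4 γδ libraries. At St8sia1 this region was chr6:142865789-142866352, a region of 564 bp whose highest peak outscored 98.7% of the list in transgenic SOX13hi, 99.0% in SOX13hi, 95.9% in transgenic SOX13lo, 96.2% in SOX13lo and 99.5% in DP. It lies inside the stretch with the largest St8sia1 deficit, so the regions that SOX13hi lacked there were others around it. At B3gnt2 it was chr11:22759305-22760883, 1579 bp wide, whose highest peak outscored 89.3% of the list in transgenic SOX13hi, 88.9% in SOX13hi, 86.1% in transgenic SOX13lo, 97.6% in SOX13lo and 99.2% in DP. This region was listed as 4 peaks in transgenic SOX13hi, 4 in SOX13hi, 3 in transgenic SOX13lo, 4 in SOX13lo and 1 wide peak in DP. At Arpp21 it was chr9:112077378-112077806, 429 bp wide, at 98.8% in transgenic SOX13hi, 98.7% in SOX13hi, 89.4% in transgenic SOX13lo, 99.5% in SOX13lo and 75.03% in DP. Here DP ranked lowest of the 5 libraries, opposite to the order of the peak counts at St8sia1 and B3gnt2. The highest Arpp21 peak in DP lay elsewhere, at chr9:112110418-112110550, with 94.8% of the list below it in transgenic SOX13hi, 95.4% in SOX13hi, 85.0% in transgenic SOX13lo, 91.1% in SOX13lo and 97.0% in DP. The score is the authors' own and its meaning is not stated, so these percents place a peak within its own list only.

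Further regions open in all 5 libraries were chr6:142913278-142913795 and chr6:142836058-142836161 at St8sia1, chr11:22772010-22772135 and chr11:22715809-22716184 at B3gnt2, and chr9:112119736-112120191 at Arpp21. Regions in all 5 libraries made up 4 of 114 at St8sia1, 3 of 86 at B3gnt2 and 6 of 72 at Arpp21, together 13 of 272 or 4.78% (2.57 to 8.03%), where 9.45% of all merged regions were in all 5. Regions in DP alone numbered 54 at St8sia1, 46 at B3gnt2 and 30 at Arpp21, together 47.8% (41.7 to 53.9%), where the whole genome gave 40.3%. By locus, regions in all 5 libraries made up 3.51% at St8sia1, 3.49% at B3gnt2 and 8.33% at Arpp21. Those in DP alone made up 47.4%, 53.5% and 41.7% in the same order. Arpp21 was thus near the genome on both shares, and the pooled difference came from St8sia1 and B3gnt2. Over lists of equal length, regions in all 5 libraries made up 10 of 96, or 10.4% (5.11 to 18.3%), where the genome gave 20.1%. Regions in DP alone made up 25.0% (16.7 to 34.9%), where it gave 14.5%. At Arpp21 the shares at equal length were 17.9% in all 5 and 14.3% in DP alone. Presence in SOX13hi and SOX13lo entered the rule, so these shares are descriptions.

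Regions listed in SOX13lo and DP but in no other library were few. There were 6 at St8sia1, 5 at B3gnt2 and 4 at Arpp21, together 15 of 272 or 5.51% (3.12 to 8.93%), a share whose interval holds the 4.15% of the whole genome. At equal list length, 4 of 96 regions were in this class, 4.17% (1.15 to 10.3%), beside 2.56% of the genome. Of the 15, 0 had peaks of both libraries at or above the lowest score of those shorter lists, so the 4 were not among them. The highest by SOX13lo score at St8sia1 was chr6:142898804-142898952, which outscored 52.6% of the SOX13lo list and 18.1% of the DP list. At B3gnt2 it was chr11:22758223-22758388, at 65.8% in SOX13lo and 48.5% in DP. At Arpp21 it was chr9:112135793-112136003, at 82.0% in SOX13lo and 56.7% in DP, and the other 3 lay within 2 kb of it. All 3 ranked below the strongest region of their locus, and 2 of the 3 stood near or below the middle of the DP list. Peaks absent from both SOX13lo and DP were also weak. The highest was chr6:142758895-142758922 at St8sia1 and chr11:22709710-22709737 at B3gnt2, both in transgenic SOX13hi alone, at 28.8% and 52.1% of that list. At Arpp21 a pair of regions tied at 46.4% of the SOX13hi list. They were chr9:112076953-112077009, in transgenic SOX13hi at the lowest score of its list, and chr9:112077861-112077966, in transgenic SOX13hi at 42.8%.

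The share of DP regions among those missing from SOX13hi ranged from 34.6% at St8sia1 to 61.9% at B3gnt2, with overlapping intervals. SOX13lo had 39 regions at St8sia1, 29 at B3gnt2 and 31 at Arpp21, of which 26, 21 and 19 were absent from SOX13hi. Together that was 66.7%, beside 49.8% of all SOX13lo regions, by the contrast the rule used. Of those absent regions, DP held 9 of 26 at St8sia1 (34.6%, interval 17.2 to 55.7%), 13 of 21 at B3gnt2 (61.9%, 38.4 to 81.9%) and 9 of 19 at Arpp21 (47.4%, 24.4 to 71.1%). The whole genome gave 39.1%, which lay inside the intervals of St8sia1 and Arpp21 and just inside that of B3gnt2. At St8sia1, then, the share of DP regions among those that SOX13hi lacked was no higher than the background, although DP and SOX13lo had the highest totals there. Transgenic SOX13hi held 3 of 26 of these regions at St8sia1, 9 of 21 at B3gnt2 and 5 of 19 at Arpp21, together 25.8%, where the background was 22.2%. Transgenic SOX13lo held 2, 3 and 3 of them, together 12.1%, beside a background of 7.61%.

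Over lists of equal length the overlap of these regions with DP was smaller. Of the SOX13lo regions, 10 of 15 at St8sia1, 11 of 14 at B3gnt2 and 6 of 15 at Arpp21 were absent from SOX13hi, together 61.4%, beside 34.3% of the genome. DP held 3, 2 and 1 of them, together 6 of 27 or 22.2% (8.62 to 42.3%), where the genome gave 34.5%. Transgenic SOX13hi held 18.5% of them, with 26.1% over the genome, and transgenic SOX13lo 25.9%, with 20.9%. Among the stronger peaks, then, the share of DP regions among those that SOX13hi lacked was below the background value, which its interval holds. At B3gnt2 it was 2 of 11 with equal length and 13 of 21 with all peaks.

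SOX13hi also had regions of its own at the loci. Those absent from SOX13lo numbered 10 of 23 at St8sia1, 3 of 11 at B3gnt2 and 5 of 17 at Arpp21, together 35.3% (22.4 to 49.9%), near the 33.0% of the genome. Transgenic SOX13hi held 1, 0 and 2 of them, together 16.7% (3.58 to 41.4%), where the genome gave 31.6%, and DP held 4, 1 and 0, together 27.8%, where it gave 32.7%. Over lists of equal length 11 of 28 were absent from SOX13lo (39.3%, with 29.6% over the genome), of which transgenic SOX13hi held 2 (18.2%, with 37.6%) and DP held 2 (18.2%, with 27.8%). The 2 SOX13hi libraries thus shared few of the regions that set SOX13hi apart from SOX13lo, with intervals wide enough to hold the background in each case.

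**Figure D4:**
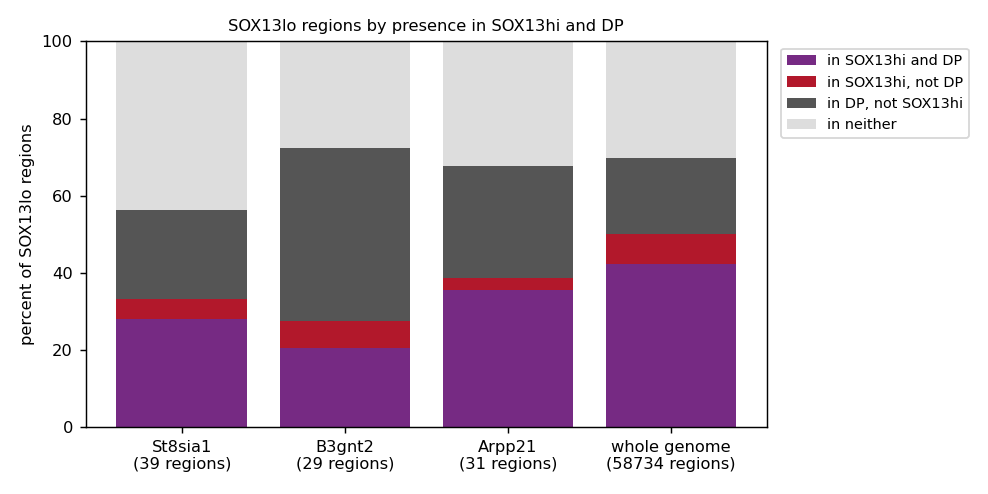
Percent of SOX13lo regions (vertical axis) by presence in SOX13hi and DP, for each locus and for all 58734 SOX13lo regions (horizontal axis). Regions in DP but not SOX13hi make up 44.8% at B3gnt2, 29.0% at Arpp21 and 23.1% at St8sia1, beside 19.5% over the whole genome. Absence from SOX13hi entered the choice of the loci, which raises these shares. With lists of equal length this class held 3 of 15 SOX13lo regions at St8sia1, 2 of 14 at B3gnt2 and 1 of 15 at Arpp21. Over the genome it held 3556 of 29996. With all peaks, 43.6% of SOX13lo regions at St8sia1 are in neither.

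Peak by peak, the SOX13lo peaks of the loci met the other γδ lists in smaller shares than the whole SOX13lo list did, and the DP list in about the same share. The loci were chosen for many regions in SOX13lo and few in SOX13hi, which lowers the share of SOX13lo peaks met by SOX13hi. Shares met by the other lists depend on that choice too, so these shares are descriptions. Of 110 such peaks, 36.4% met a transgenic SOX13hi peak, beside 49.8% of the whole SOX13lo list. SOX13hi peaks met 31.8% of them (46.4% of the list), transgenic SOX13lo peaks 18.2% (28.0% of the list) and DP peaks 60.0% (60.9% of the list). By locus, DP met 54.5% at St8sia1, 66.7% at B3gnt2 and 60.6% at Arpp21. Of the 207 DP peaks in the loci, 21.3% met a transgenic SOX13hi peak (29.8% of the DP list), 15.9% a SOX13hi peak (25.9%), 9.18% a transgenic SOX13lo peak (15.9%) and 29.5% a SOX13lo peak (32.5%). Of the 59 SOX13hi peaks, 44.1% met a transgenic SOX13hi peak (61.2% of the SOX13hi list), 27.1% a transgenic SOX13lo peak (34.1%), 62.7% a SOX13lo peak (62.7%) and 67.8% a DP peak (63.1%).

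With lists of equal length the agreement of SOX13lo with DP at the loci was below that of the whole list. Of 47 SOX13lo peaks, 42.6% met a transgenic SOX13hi peak (61.8% of the list), 36.2% a SOX13hi peak (62.0%), 38.3% a transgenic SOX13lo peak (48.7%) and 46.8% a DP peak (62.2%). Of 53 DP peaks, 35.8% met a transgenic SOX13hi peak (54.9%), 32.1% a SOX13hi peak (53.1%), 26.4% a transgenic SOX13lo peak (44.5%) and 37.7% a SOX13lo peak (57.5%). Of 31 SOX13hi peaks, 54.8% met a transgenic SOX13hi peak (66.8%), 45.2% a transgenic SOX13lo peak (48.8%), 58.1% a SOX13lo peak (67.2%) and 64.5% a DP peak (60.9%). At the loci, SOX13lo peaks met the DP list in a smaller share than over the whole list, and SOX13hi peaks in about the same share.

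The SOX13lo peaks that SOX13hi did not meet had low median scores within their own list when all peaks were counted. At St8sia1 their median score was 11, and that of the peaks met was 25. At B3gnt2 the medians were 13 for peaks not met and 21.5 for peaks met, and at Arpp21 they were 10 and 52. The lowest score of the SOX13lo list is 8 and its median 14, so the median of the peaks not met was below that of the list at each locus. Some peaks not met ranked high, such as that in chr11:22713999-22714306 at B3gnt2, which outscored 85.8% of the list. Over the whole SOX13lo list the medians were 11 for peaks not met and 33 for peaks met, so a low median of peaks not met was not confined to these loci. With lists of equal length, where the lowest SOX13lo score was 15, the medians for peaks not met were 18.5 at St8sia1, 25 at B3gnt2 and 40.5 at Arpp21. For peaks met they were 46.5, 28 and 64. Over the whole list of that length the medians were 22 for peaks not met and 53 for peaks met. List length and score move together with these shares, and their part in the result was not tested.

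How peaks were cut mattered most at St8sia1. Joining peaks of a list that lay within 150 bp of each other left 22 sites in transgenic SOX13hi, 22 in SOX13hi, 6 in transgenic SOX13lo, 24 in SOX13lo and 69 in DP. Per 10000 joined sites of each list the rate was 4.61 in transgenic SOX13hi, 5.46 in SOX13hi, 2.39 in transgenic SOX13lo, 4.90 in SOX13lo and 8.18 in DP. SOX13hi was then above SOX13lo, by 0.16 on the log2 scale, and SOX13lo no longer stood with DP. SOX13lo had 1.83 peaks per joined site in this interval, beside 1.38 over its whole list, and SOX13hi had 1.18, beside 1.35. At B3gnt2 the joined sites numbered 21 in transgenic SOX13hi, 11 in SOX13hi, 9 in transgenic SOX13lo, 25 in SOX13lo and 56 in DP, and SOX13hi stayed at -0.90 relative to SOX13lo. At Arpp21 they numbered 18 in transgenic SOX13hi, 16 in SOX13hi, 9 in transgenic SOX13lo, 22 in SOX13lo and 37 in DP, with SOX13hi at -0.18 relative to SOX13lo.

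Covered length gave another reading of the same loci. At St8sia1 peaks covered 1653 bp in transgenic SOX13hi, 1686 bp in SOX13hi, 966 bp in transgenic SOX13lo, 3784 bp in SOX13lo and 5585 bp in DP. Per Mb of sequence listed in the whole library this was 282 bp in transgenic SOX13hi, 322 bp in SOX13hi, 364 bp in transgenic SOX13lo, 530 bp in SOX13lo and 472 bp in DP. By this measure SOX13lo was the highest library at St8sia1 and the 3 other γδ libraries were lower than both SOX13lo and DP. With lists of equal length it was 219.8 bp per Mb in transgenic SOX13hi, 220.1 in SOX13hi, 364 in transgenic SOX13lo, 446 in SOX13lo and 301 in DP, which put transgenic SOX13lo above DP. At B3gnt2 the same measure was 276 bp per Mb in transgenic SOX13hi, 259 in SOX13hi, 323 in transgenic SOX13lo, 374 in SOX13lo and 575 in DP. At Arpp21 it was 389 bp per Mb in transgenic SOX13hi, 303 in SOX13hi, 431 in transgenic SOX13lo, 413 in SOX13lo and 375 in DP, where transgenic SOX13lo was highest and DP lay below 3 of the 4 γδ libraries. SOX13hi was lowest at B3gnt2 and Arpp21 by covered length, and transgenic SOX13hi at St8sia1.

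**Figure D5:**
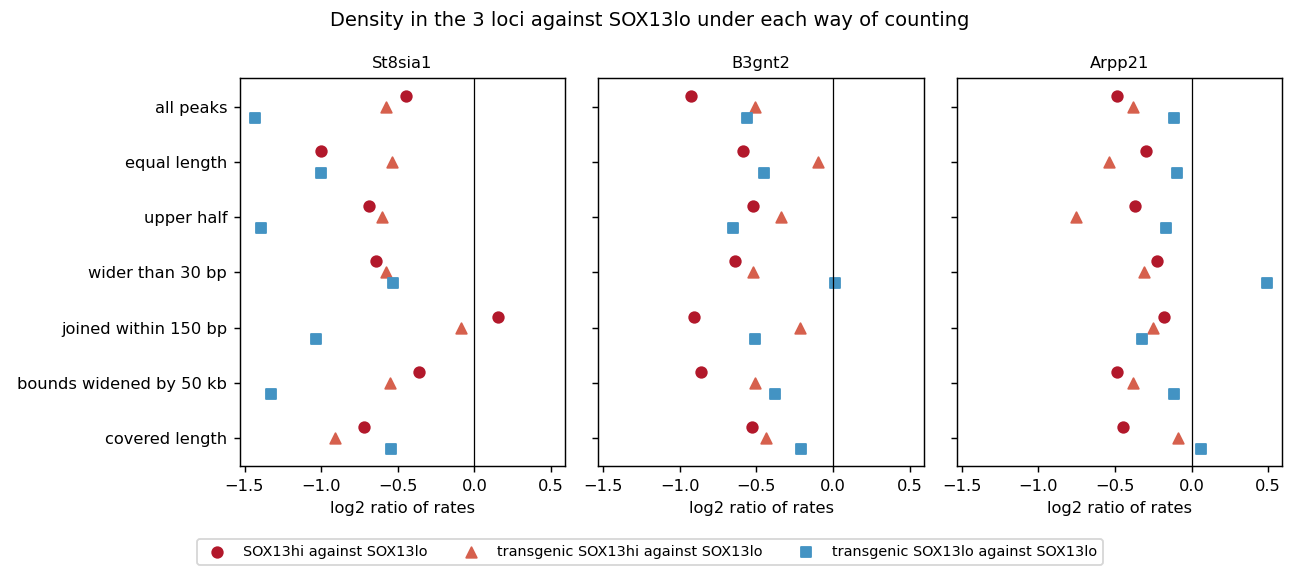
Log2 ratio of peak density to SOX13lo (horizontal axis) for SOX13hi, transgenic SOX13hi and transgenic SOX13lo at each locus under 7 ways of counting (vertical axis); each point compares 2 single libraries. SOX13hi and transgenic SOX13hi lie below 0 throughout, except SOX13hi at St8sia1 after joining (0.16), and transgenic SOX13lo reaches 0.50 at Arpp21 with peaks wider than 30 bp.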

How the data were processed

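ATAC-seq peaks of 5 libraries were taken as deposited, 1 headerless list per library with chromosome, start, end, name, score and strand. The score in column 5 is a whole number the authors deposited with each peak; the sources used here do not give what it counts, the aligner, the peak caller, its threshold or the depth of sequencing. Scores served only for ranking and filtering inside 1 list. The build is mm9 per the submitters' processing notes.

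Counting ran in Python 3.11.15 (pandas 2.3.3 and numpy 2.4.6), intervals came from scipy 1.17.1 and plots from matplotlib 3.10.9; the counting was tested on simulated data. Peaks counted in a locus when they overlapped it by at least 1 bp. Lists were merged into regions by overlaps of at least 1 bp, and regions were counted by centre in windows of 100 kb and stretches of 10 kb. Lists of equal length hold the 33155 highest scores of each. Ties at the lowest kept score were taken in file order.

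Regions were named by rule: up to 3 in all 5 libraries by rank in SOX13hi, up to 3 in SOX13lo and DP alone by SOX13lo score, the highest absent from both, and the highest peak of each library. The loci, lists and rules were chosen with earlier results of these data known. Alternatives were lists of equal length with and without tied scores, the upper 50% by score, peaks wider than 30 bp, joining within 150 bp, bounds widened by 50 kb, covered length, a reciprocal overlap of 50% and centres within 200 bp.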

Additional observations from a re-analysis of the deposited data

Results flagged for a closer look

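At St8sia1 and B3gnt2 the SOX13hi rate relative to SOX13lo had opposite signs with and without the Sox13 transgene when all peaks were counted. In transgenic cells the log2 ratio of peaks per 10000 listed peaks, SOX13hi over SOX13lo, was 0.86 at St8sia1 (95% interval -0.31 to 2.20) and 0.053 at B3gnt2 (-1.05 to 1.24), whereas in cells without the transgene it was -0.45 at St8sia1 (-1.21 to 0.28) and -0.93 at B3gnt2 (-1.94 to 0.014). All 4 intervals hold 0. The transgenic ratio turned to -0.047 at St8sia1 and -0.53 at B3gnt2 over peaks wider than 30 bp, to -0.37 and -0.23 by covered length, and to -0.13 at B3gnt2 with widened bounds. The ratio without the transgene turned to 0.16 at St8sia1 when peaks within 150 bp were joined. Each value compares 2 single libraries, and the difference between them was not tested. The transgenic SOX13lo list is the shortest of the 5, with 8 peaks at St8sia1 and 11 at B3gnt2, and the part of list length in this difference was not tested.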

How the results depend on the processing

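No paired analysis was possible because each group holds 1 library, and leaving out a replicate could not be run for the same reason. Of 147 log2 ratios recomputed for the 3 loci, 131 kept their direction and moved within their counting interval, 2 came to exactly 0 (equal length, SOX13lo against DP at B3gnt2 and transgenic SOX13lo against DP at Arpp21), 4 moved further and 10 reversed. With lists of equal length, SOX13hi against DP at St8sia1 moved to -1.52 (-1.48 without ties at the lowest score), transgenic SOX13hi against DP at B3gnt2 moved to -0.10, and SOX13lo against DP at B3gnt2 turned to 0.043 without ties. Joining peaks within 150 bp turned SOX13hi against SOX13lo at St8sia1 to 0.16. Peaks wider than 30 bp turned transgenic SOX13lo against SOX13lo to 0.013 at B3gnt2 and 0.50 at Arpp21, and transgenic SOX13lo against DP to 0.60 at Arpp21, which the upper 50% by score left at 0.0026. Covered length moved transgenic SOX13lo against DP at St8sia1 to -0.38, and turned SOX13lo against DP to 0.17 there; at Arpp21 it turned transgenic SOX13lo to 0.061 against SOX13lo and 0.20 against DP, and transgenic SOX13hi against DP to 0.055. Of 21 recomputed ratios of transgenic SOX13hi to transgenic SOX13lo, 6 reversed: wider peaks gave -0.047 at St8sia1 and -0.53 at B3gnt2, covered length -0.37 and -0.23 at those loci, widened bounds -0.13 at B3gnt2 and joining 0.071 at Arpp21.

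The percent of SOX13lo peaks met by another list depended on the overlap rule. A reciprocal overlap of 50% lowered it, at St8sia1, B3gnt2 and Arpp21, to 9.09%, 9.09% and 15.2% for transgenic SOX13hi, 9.09%, 9.09% and 15.2% for SOX13hi, 2.27%, 6.06% and 6.06% for transgenic SOX13lo and 9.09%, 12.1% and 15.2% for DP. Centres within 200 bp raised it to 45.5% at St8sia1 and 66.7% at Arpp21 for transgenic SOX13hi, 52.3% at St8sia1 and 42.4% at B3gnt2 for SOX13hi, and 87.9% at Arpp21 for DP. Equal length gave 31.2%, 40.0% and 43.8% at the 3 loci for transgenic SOX13lo and 40.0% at B3gnt2 for DP. Wider peaks gave 25.0% at B3gnt2 for transgenic SOX13hi and 77.8% at Arpp21 for DP. The windows with a deficit of at least 5 in SOX13hi against SOX13lo fell to 37 with equal length, against 128 with all peaks. The cause of these changes was not tested. Excluding ties and counting covered length were chosen after the data were seen, as was comparing the transgenic fractions with each other. Counts of 8 to 85 peaks per locus with all peaks, and of as few as 3 in the upper 50% by score, limit all ratios.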
